A study of Homo sapiens with 12 samples.

Results

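The integrins described here are 9 subunit genes, ITGAM, ITGAX, ITGAL, ITGB2, ITGA4, ITGA5, ITGAV, ITGB1 and ITGB3, along with ICAM1, a surface protein that leukocyte integrins bind. They were picked by symbol from a deposited table of normalized read numbers for 57820 genes, in which the 10 genes hold 11 rows because ITGB3 is listed under both ENSG00000259207.3 and ENSG00000259753.1. The table covers RNA sequencing of HL60, an established human line grown from an acute promyelocytic leukemia, in 12 libraries of 4 groups, with 3 in each. EV-Veh and EV-Dox cells carried the empty vector pRRL-EV-puro and received vehicle or doxycycline. TFEB-Veh and TFEB-Dox cells carried pRRL-TFEBS211A-puro, which encodes TFEB with the S211A change (TFEB drives genes of lysosomes), and received vehicle or doxycycline. The labels list 1 µg/ml doxycycline for 48 h in the protocol of each sample, vehicle samples included, so that the treatment was taken from the treatment label. All groups share the transduction and a puromycin-resistance vector, and nothing in the labels says whether each line was a clone or a pool, or whether the 3 libraries of a group came from separate cultures. The p-values below therefore measure the spread between libraries, which may be technical.

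Integrins are surface receptors made of 1 alpha and 1 beta subunit, and an alpha subunit reaches the cell surface only with a beta partner. ITGB2 (CD18) is the beta chain that ITGAL (CD11a, which makes LFA-1), ITGAM (CD11b, Mac-1 or complement receptor 3) and ITGAX (CD11c, complement receptor 4) share. These leukocyte receptors bind ICAM1, and those of ITGAM and ITGAX also bind complement fragments. ITGB1 pairs with ITGA4 (VLA-4, a receptor for VCAM1 and fibronectin), with ITGA5 (VLA-5, a fibronectin receptor) and with ITGAV, which also pairs with ITGB3 to bind vitronectin. In myeloid cells ITGAM and ITGAX are widely used surface markers of differentiation, ITGAM of granulocytes and monocytes, ITGAX of monocytes, macrophages and dendritic cells.

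The libraries held 4474007 to 22488047 whole reads, recovered from the deposited values. TFEB itself (ENSG00000112561.13) lay between 79.8 and 196 normalized reads in the 9 libraries without induction and between 14470.4 and 22629 in TFEB-Dox. The targeted gene thus matched the label of the TFEB-Dox libraries. It cannot tell EV-Veh, EV-Dox and TFEB-Veh apart, so the labels of the other 9 libraries were not checked by it. Transgene reads and endogenous reads cannot be told apart. Mean totals of the deposited values differed between groups, at 15334981 in EV-Veh, 7097589 in EV-Dox, 10177527 in TFEB-Veh and 18181834 in TFEB-Dox. Mitochondrial genes took 13.3% to 33.1% of the reads, with the highest mean in EV-Dox (30.4% ± 3.7, SD, n = 3) and the lowest in TFEB-Dox (15.96% ± 2.4, n = 3). The part of these differences in the results was not tested, and each call below is therefore given with its count over 5 ways of scaling the libraries. Of 7 promyelocyte markers all 7 were tested, and their summed level was 68617 to 222154 in EV-Veh, 50416 to 98069 in TFEB-Veh, 5084 to 30126 in EV-Dox and 8021 to 11242 in TFEB-Dox. MPO had the highest mean of the 7 (48304). The sum was larger than those of the other lists below in every library, but it does not check which line was used. On the deposited scale 3 of the 7 fell in TFEB-Dox against TFEB-Veh (AZU1, MPO and PRTN3), where 4.66% of all genes were lower. In EV-Dox against EV-Veh 5 fell, where 23.3% of all genes were lower. The part of these markers in the results below was not tested. Summed levels of marker lists for other cells stayed low in every library, at 46.6 to 93.1 for 7 megakaryocyte and platelet genes (GP1BB at 0 throughout), 51.6 to 95.9 for 4 T cell genes, 60.3 to 149 for 4 B cell genes, 130 to 285 for 4 endothelial genes and 170 to 381 for 4 fibroblast genes, and no tested gene of these lists was higher in TFEB-Dox than in TFEB-Veh. Of the 7 megakaryocyte and platelet genes 2 were tested and 5 lay under the filter on low values, and the B cell gene CD79A was lower. From the endothelial and fibroblast lists, VWF averaged 100 and COL1A1 88.8 normalized reads over the 12 libraries. EV-Veh and TFEB-Veh averaged 59.3 and 71.2 for ITGAM, 102 and 108 for ITGAX and 55.6 and 49.2 for ICAM1. The changes of these members thus start from levels of similar size to those of such markers. In a bulk library fewer cells of a type and less RNA per cell cannot be told apart, which applies to each level below.

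When TFEB was induced, 6 of the 10 genes were higher and 1 was lower in TFEB-Dox than in TFEB-Veh (limma on log2(value + 1), adjusted p under 0.05 over the 23128 genes with a mean of at least 10, a filter that all 10 passed). ITGAX rose most, followed by ICAM1, ITGB3, ITGA5, ITGB1 and ITGB2, ITGA4 fell, and ITGAM, ITGAL and ITGAV did not pass the test. Over all genes tested, 17.4% were higher and 4.66% lower in this comparison, and the median change was 1.72 over the 10 genes beside -0.00 over all genes. The split of all genes depended on the scaling, with 19.0% higher and 9.27% lower under TMM, 13.2% and 28.9% with equal totals, 15.0% and 21.9% with upper quartiles and 14.4% and 20.7% with expressed genes. TFEB-Dox against EV-Dox, where both groups received doxycycline, called 6 higher and 1 lower, and here the lower gene was ITGAM. The background was 27.2% higher and 5.37% lower, and the median change was 2.03 beside 0.07 over all genes. With TMM the background was 25.8% higher and 15.3% lower, with equal totals 13.3% and 61.8%, with upper quartiles 16.9% and 49.0% and with expressed genes 14.2% and 57.5%. Against EV-Veh, 3 genes were higher (ITGAX, ICAM1 and ITGB3) and 2 lower (ITGA4 and ITGAL), beside 12.2% and 8.51% of all genes, with a median of 1.02 beside 0.01. Those shares were 18.2% and 9.58% with TMM, 13.3% and 20.9% with equal totals, 15.9% and 16.6% with upper quartiles and 16.0% and 16.2% with expressed genes. These 3 comparisons share the TFEB-Dox libraries, so their values stand side by side and are not independent. Between the lines without doxycycline (TFEB-Veh against EV-Veh), limma called none of the 10 genes, with 0 at an unadjusted p under 0.05, and 0.0% of all genes, while 1754 genes had an unadjusted p under 0.05 and edgeR and DESeq2 each called 0 genes.

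**Figure D1:**
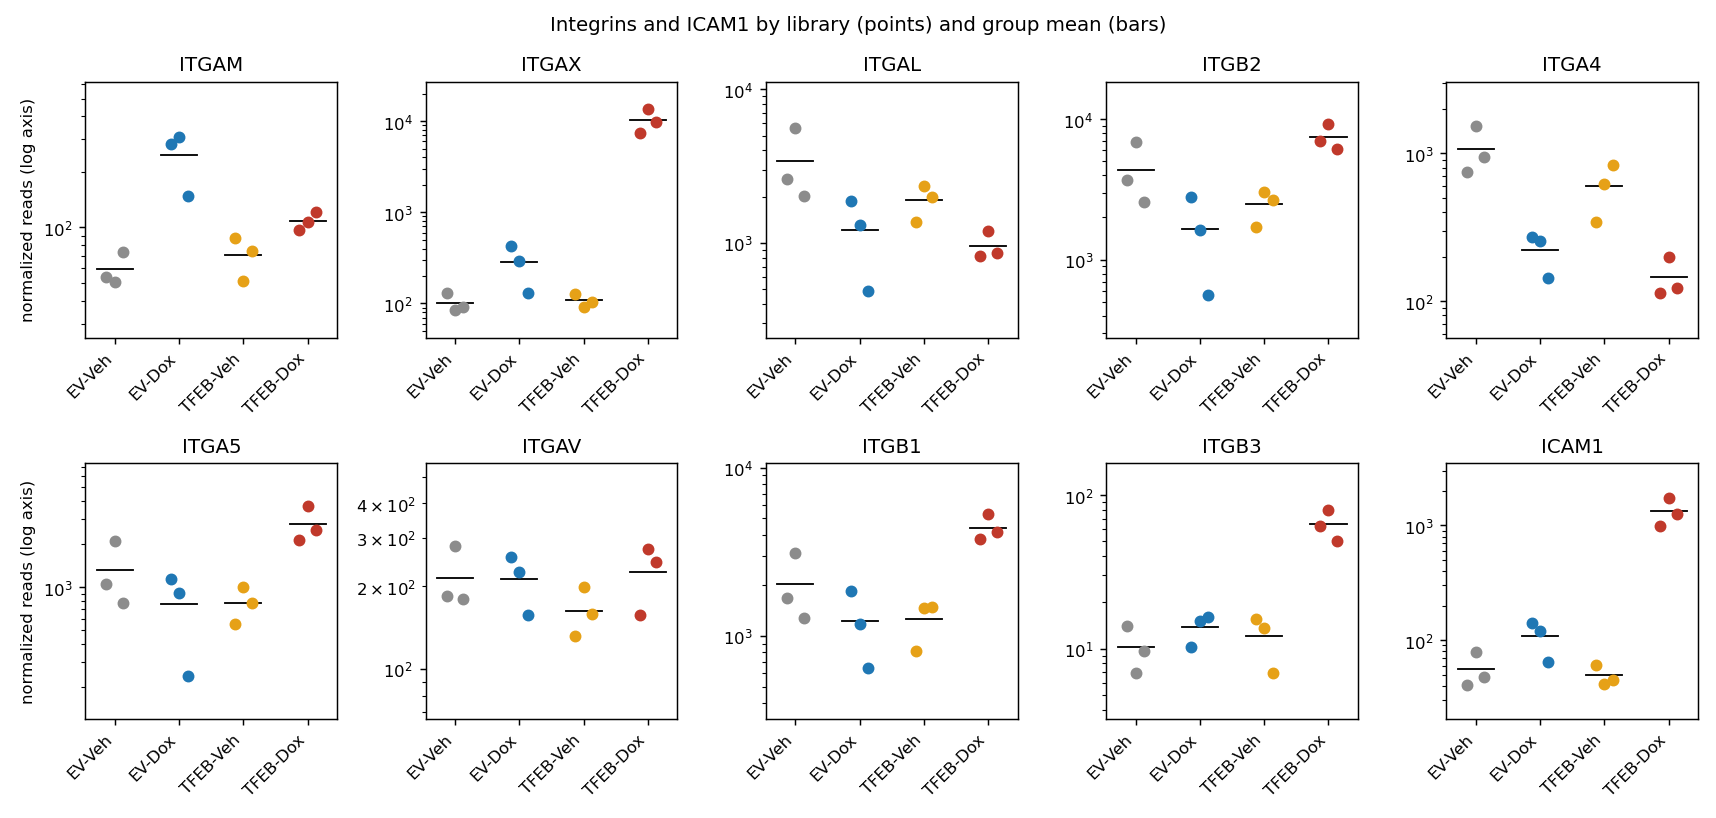
Each panel plots 1 gene, with normalized reads on a log axis, a point for each library and a bar at the mean of each group of 3 libraries. The TFEB-Dox points of ITGAX, ICAM1, ITGB3, ITGA5 and ITGB1 lie above every other point in their panels, whereas the highest points of ITGAM belong to EV-Dox.

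ITGAX and ITGAM, which lie side by side on chromosome 16 and encode the closely related alpha chains CD11c and CD11b, went separate ways. ITGAX (ENSG00000140678.12) had 129.95, 84.3 and 92.0 normalized reads in EV-Veh replicates 1 to 3, 424, 294 and 130.05 in EV-Dox, 128, 91.6 and 104 in TFEB-Veh, and 7397, 13502 and 9735 in TFEB-Dox. All 3 TFEB-Dox libraries stood far above the rest, the 2 vehicle groups overlapped, and the lowest EV-Dox library was at the level of the highest EV-Veh library. ITGAX was 91.8-fold higher in TFEB-Dox than in TFEB-Veh (log2 change 6.52, SE 0.47, limma adjusted p = 2.85e-15) and 39.0-fold higher than in EV-Dox (5.29, adjusted p = 1.71e-12). With all 5 scalings the first change lay between 5.66 and 6.52 and was called each time. The change against EV-Dox lay between 3.85 and 5.29 and was also called each time.

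ITGAM (ENSG00000169896.12) had 53.9, 50.6 and 73.6 normalized reads in EV-Veh, 282, 308 and 149 in EV-Dox, 87.7, 51.4 and 74.5 in TFEB-Veh, and 96.4, 107 and 121 in TFEB-Dox. EV-Dox was the highest group without overlap, and TFEB-Dox lay just above both vehicle groups. The change in TFEB-Dox against TFEB-Veh was 0.62 (SE 0.34, limma adjusted p = 0.210), did not pass the test under any of the 5 scalings and turned to between -0.23 and -0.08 under 3 of them (equal totals, upper quartile and expressed genes). Against EV-Dox, ITGAM was 2.17-fold lower in TFEB-Dox (-1.12, SE 0.34, limma adjusted p = 0.00983), called under all 5 scalings, although without EV-Dox replicate 2 the adjusted p was 0.0735. Against EV-Veh the change was 0.87 (limma adjusted p = 0.0681), which TMM, 1 of the 5 scalings, called (limma adjusted p = 0.0197), as did edgeR (adjusted p = 0.0186), DESeq2 (0.0352) and limma with the replicate as a block (0.0459). The block is not established as pairing here, since deviations of EV-Veh replicate 2 and TFEB-Dox replicate 2 from their group means correlated at -0.13. These levels rest on few reads, 46 to 367 per library, so that ITGAM was measured less precisely than ITGAX in the induced cells, with 92 to 99 reads beside 7059 to 12549.

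The difference between the genes within a library does not depend on how that library is scaled. On the log2 scale, ITGAX minus ITGAM was 1.26, 0.73 and 0.32 in EV-Veh, 0.59, -0.07 and -0.19 in EV-Dox, 0.54, 0.82 and 0.48 in TFEB-Veh, and 6.25, 6.97 and 6.32 in TFEB-Dox. ITGAX reads were thus 76.7 to 127 times those of ITGAM in the induced cells and 0.873 to 2.41 times in the other 9 libraries, and the ranges lie far apart. The mean difference was 6.51 ± 0.40 (SD, n = 3) in TFEB-Dox against 0.50 ± 0.44 (n = 9), a gap of 6.02 (exact permutation test, two-sided p = 0.00455, the smallest that 220 arrangements can give, and 0.0318 after Benjamini-Hochberg adjustment over 7 comparisons). That test pools EV-Veh, EV-Dox and TFEB-Veh, which differ in vector or treatment, as if they were exchangeable. Between pairs of groups of 3 the smallest possible exact p is 0.1. TFEB-Dox differed by 5.75 from EV-Veh, 6.40 from EV-Dox and 5.90 from TFEB-Veh. Each gave that smallest value (exact permutation p = 0.1, and 0.175 after Benjamini-Hochberg adjustment). EV-Dox differed from EV-Veh by -0.66 (exact permutation p = 0.2). In a comparison chosen after the data were seen, same-numbered EV libraries were taken as pairs, although their pairing is not established. The difference was then lower in EV-Dox in all 3 pairs, by -0.67, -0.79 and -0.51 (exact permutation of signs within pairs, two-sided p = 0.25, the smallest that 8 arrangements can give). ITGAD, the next integrin gene along chromosome 16, stayed at 44.2 ± 9.1 (SD, n = 3) in TFEB-Dox and 39.1 ± 9.2 (n = 3) in TFEB-Veh (0.17, limma adjusted p = 0.757).

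**Figure D2:**
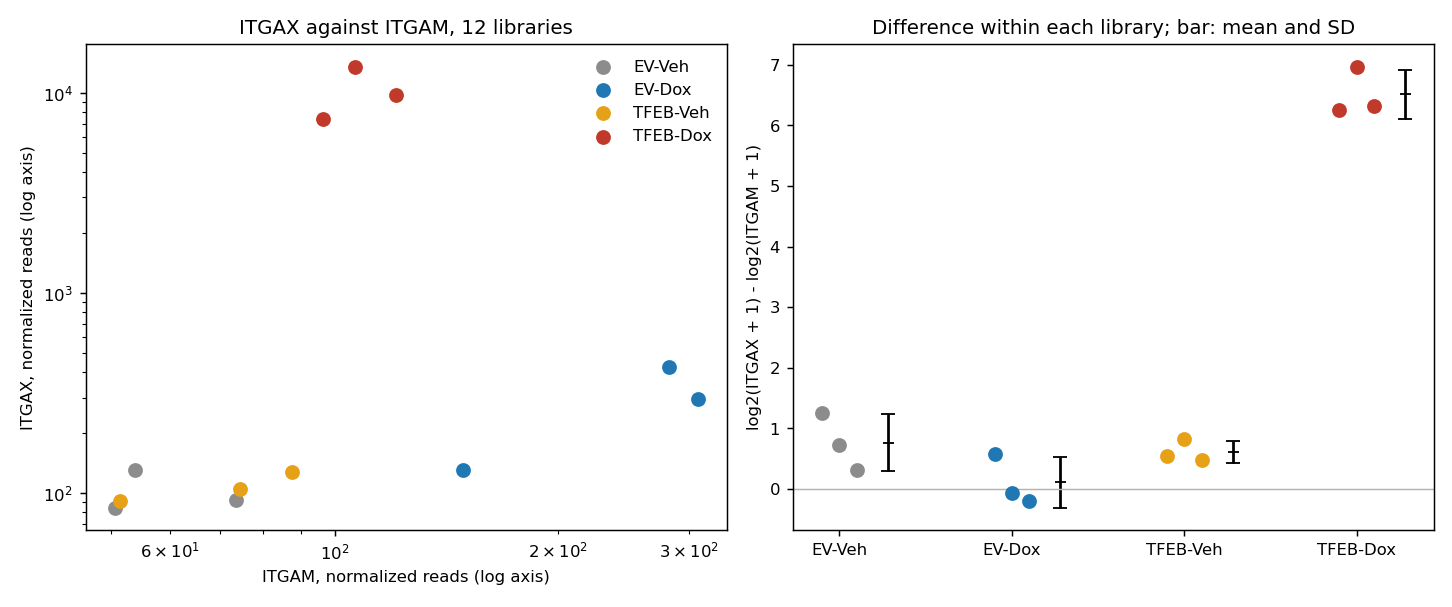
Left, ITGAX against ITGAM in normalized reads on log axes, 1 point for each of the 12 libraries, coloured by group; right, log2(ITGAX + 1) minus log2(ITGAM + 1) in each library, with the mean and SD of each group of 3. The TFEB-Dox libraries sit at 6.25 to 6.97 on the right and the other libraries at -0.19 to 1.26, and on the left EV-Dox extends to the right while TFEB-Dox extends upward.

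RefSeq promoter sequence (GRCh38.p14) was matched for 6 of the 10 genes, ITGAM, ITGA4, ITGA5, ITGAV, ITGB1 and ICAM1, at 8 start sites, and the 250 bases before each start were searched on both strands. ITGAX, ITGAL, ITGB2 and ITGB3 had no matching entry. The motifs were the E-box CACGTG, the PU.1 core GAGGAA, the kappa B form GGAAATTCC, the AP-1 form TGANTCA and the TATA box TATAAA, and no match of 1 motif overlapped that of another. Of the 35116 promoters in the RefSeq table, 6.34% held CACGTG, 23.6% GAGGAA, 0.413% GGAAATTCC, 6.57% TGANTCA and 10.7% TATAAA. None of the 8 windows held CACGTG or TGANTCA, which says only that these letters were not in these windows. GAGGAA was found in the window of ITGAM and in windows of ITGAV (108 bases before the start) and ITGB1 (184 bases). TATAAA was found in another ITGB1 window (102, 100 and 35 bases before the start) and in that of ICAM1. ITGAV and ITGB1 were not called higher in EV-Dox on the deposited scale, and a link of any match to the level of a gene was not tested. The window of ITGAM, at chr16:31259725-31259974 on the plus strand, is shown because this gene was higher in EV-Dox and not in TFEB-Dox, each against its vehicle group. The capitals mark GAGGAA 127 bases before the start.
ITGAM: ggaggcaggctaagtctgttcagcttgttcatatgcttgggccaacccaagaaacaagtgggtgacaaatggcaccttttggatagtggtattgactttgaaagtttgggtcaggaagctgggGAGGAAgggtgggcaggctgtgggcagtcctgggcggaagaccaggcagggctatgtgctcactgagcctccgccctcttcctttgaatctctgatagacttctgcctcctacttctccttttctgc

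ITGB2, the common beta chain, and ITGAL, its partner in LFA-1, parted as well. ITGB2 (ENSG00000160255.12) had 3707, 6837 and 2563 normalized reads in EV-Veh, 2813, 1636 and 561 in EV-Dox, 1721, 3049.8 and 2663 in TFEB-Veh, and 7004, 9195 and 6095 in TFEB-Dox. TFEB-Dox lay above TFEB-Veh and EV-Dox without overlap, and EV-Veh replicate 2 reached into its range. ITGB2 was 3.04-fold higher in TFEB-Dox than in TFEB-Veh (log2 change 1.60, SE 0.59, limma adjusted p = 0.0441), with a call under all 5 scalings, but leaving out 1 library lost the call in 8 of 12 cases, with adjusted p between 0.0613 and 0.178, and so did testing without the filter on low values (adjusted p = 0.225). Against EV-Dox it was 5.33-fold higher (2.42, limma adjusted p = 0.00124). That call held under all 5 scalings, but the change was 0.98 with equal totals. Against EV-Veh the change was 0.86 (limma adjusted p = 0.359), which the other 4 scalings called.

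ITGAL (ENSG00000005844.13), the alpha chain of lymphocyte function antigen LFA-1, had 2587, 5590.4 and 2009 normalized reads in EV-Veh, 1861, 1297 and 482 in EV-Dox, 1366, 2332 and 1988 in TFEB-Veh, and 815, 1195 and 864 in TFEB-Dox. TFEB-Dox lay below both vehicle groups without overlap and inside the range of EV-Dox. The change in TFEB-Dox against TFEB-Veh was -0.97 (SE 0.56, limma adjusted p = 0.233), and the other 4 scalings called it, with changes down to -1.83. Against EV-Veh, ITGAL was 3.25-fold lower (-1.70, limma adjusted p = 0.0232), called under all 5 scalings, but without EV-Veh replicate 1 or 2 or TFEB-Dox replicate 1 or 3 the adjusted p was 0.0508 to 0.133. In GENCODE 29, 9.56% of the ITGAL exon bases are shared with AC116348.2 or AC116348.3 and 4.46% of those of ITGB2 with ITGB2-AS1, so a small part of these reads is uncertain.

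Within each library, the distance of each alpha chain to ITGB2 showed the change without any scaling. ITGAX minus ITGB2 was 0.08 to 0.68 on the log2 scale in TFEB-Dox and -6.32 to -2.10 in the other libraries, so ITGAX reads passed those of its beta partner in the induced cells alone. ITGAL minus ITGB2 was -3.10 to -2.82 in TFEB-Dox and -0.60 to -0.22 in the other 9 libraries, a narrow range that EV-Veh, EV-Dox and TFEB-Veh shared. ITGAM minus ITGB2 was -6.42 to -5.64 in TFEB-Dox, inside the range of the vehicle groups, and -3.31 to -1.91 in EV-Dox.

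**Figure D3:**
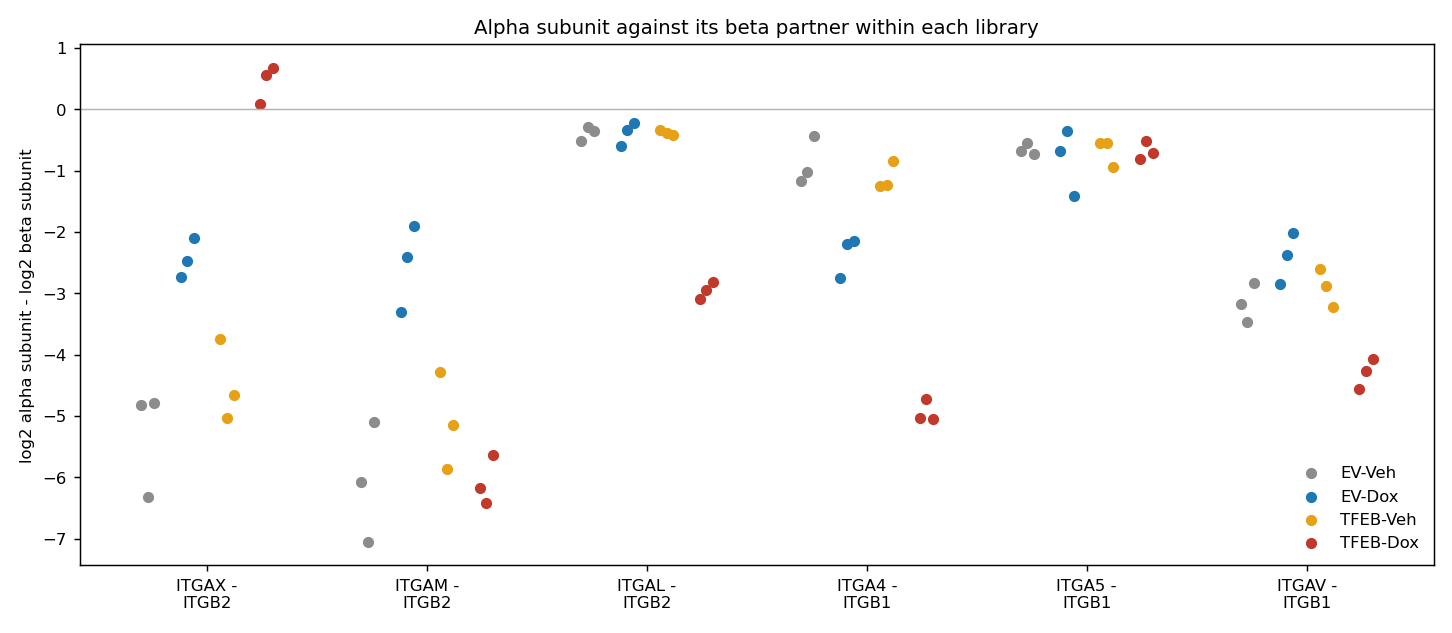
Each point is the log2 difference between an alpha subunit and its beta partner in 1 library, coloured by group. In TFEB-Dox, ITGAX lies above ITGB2 (0.08 to 0.68), and ITGAL, ITGA4 and ITGAV lie further below their partners than in every other library, while ITGA5 minus ITGB1 overlaps between the groups.

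Among the matrix receptors, ITGB1 and ITGA5, which form the fibronectin receptor VLA-5, were higher together, and ITGA4, the alpha chain of VLA-4, was lower. ITGB1 (ENSG00000150093.14) had 1688, 3102 and 1282 normalized reads in EV-Veh, 1845, 1173 and 641 in EV-Dox, 809, 1467 and 1487 in TFEB-Veh, and 3741, 5291 and 4139 in TFEB-Dox. The TFEB-Dox libraries were the 3 highest of the 12, and the other groups overlapped. ITGB1 was 3.59-fold higher in TFEB-Dox than in TFEB-Veh (log2 change 1.84, SE 0.55, limma adjusted p = 0.0112). Against EV-Dox it was 3.89-fold higher (1.96, limma adjusted p = 0.00478). Each call was kept under 5 scalings, but with equal totals the changes were 0.98 and 0.52.

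ITGA5 (ENSG00000161638.6) had 1054, 2105 and 777 normalized reads in EV-Veh, 1147, 917 and 239 in EV-Dox, 552, 1004 and 775 in TFEB-Veh, and 2131, 3684 and 2516 in TFEB-Dox. Its lowest TFEB-Dox library was only just above the highest EV-Veh library, and clear of the others. ITGA5 was 3.58-fold higher in TFEB-Dox than in TFEB-Veh (1.84, SE 0.56, limma adjusted p = 0.0133). Against EV-Dox it was 4.27-fold higher (2.10, limma adjusted p = 0.0031). Both calls again held under all 5 scalings, but with equal totals the changes were 0.98 and 0.66. Without TFEB-Veh replicate 1 or TFEB-Dox replicate 2 the calls of ITGA5 and ITGB1 against TFEB-Veh were lost, with adjusted p of 0.0741 to 0.0918 for ITGA5 and 0.0706 to 0.0772 for ITGB1. Neither passed the test against EV-Veh (1.17, adjusted p = 0.147 for ITGA5, and 1.20, adjusted p = 0.126 for ITGB1), where the 4 other scalings did call them.

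ITGA4 (ENSG00000115232.9) had 752, 1524 and 950.2 normalized reads in EV-Veh, 272, 254 and 144 in EV-Dox, 341, 619 and 831 in TFEB-Veh, and 113, 199 and 124 in TFEB-Dox. Both doxycycline groups were below both vehicle groups, and they overlapped each other. ITGA4 was 3.96-fold lower in TFEB-Dox than in TFEB-Veh (-1.98, SE 0.46, limma adjusted p = 0.000946) and 4.77-fold lower in EV-Dox than in EV-Veh (-2.25, adjusted p = 0.00201), both under all 5 scalings. TFEB-Dox against EV-Dox gave -0.61 (limma adjusted p = 0.314), a difference that the other 4 scalings called.

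ITGA5 minus ITGA4 was 4.20 to 4.34 on the log2 scale in TFEB-Dox and -0.29 to 2.07 in the other libraries, so the induced cells held far more ITGA5 than ITGA4 RNA relative to the controls. ITGA4 minus ITGB1 was -5.06 to -4.73 in TFEB-Dox, -2.76 to -2.15 in EV-Dox and -1.25 to -0.43 in the vehicle groups, 3 ranges that did not touch. ITGA5 minus ITGB1 overlapped between groups, at -0.81 to -0.52 in TFEB-Dox and -1.42 to -0.36 elsewhere, so this pair kept its ratio within the spread of the controls. The promoter windows of these alpha chains are shown because the genes moved in opposite directions: ITGA4 at chr2:181457136-181457385 on the plus strand and ITGA5 at chr12:54419267-54419516 on the minus strand hold none of these motifs and are printed without capitals.
ITGA4: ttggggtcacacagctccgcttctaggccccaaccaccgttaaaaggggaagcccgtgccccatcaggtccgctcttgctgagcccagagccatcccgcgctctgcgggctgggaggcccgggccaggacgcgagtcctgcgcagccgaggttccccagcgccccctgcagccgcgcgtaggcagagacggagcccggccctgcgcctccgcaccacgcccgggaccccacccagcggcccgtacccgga
ITGA5: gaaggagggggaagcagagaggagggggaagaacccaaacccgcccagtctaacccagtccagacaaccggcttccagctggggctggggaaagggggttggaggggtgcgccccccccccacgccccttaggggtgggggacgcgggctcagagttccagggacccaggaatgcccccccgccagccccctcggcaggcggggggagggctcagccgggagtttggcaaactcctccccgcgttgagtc

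ITGAV (ENSG00000138448.7), the alpha chain of vitronectin receptors, was the steadiest gene of the set on the deposited scale, at 215 ± 56.4 normalized reads in EV-Veh, 212 ± 50.2 in EV-Dox, 163 ± 33.7 in TFEB-Veh and 225 ± 60.1 in TFEB-Dox (SD, n = 3 each). All group ranges overlapped, and no comparison called it (0.44, SE 0.39, limma adjusted p = 0.468 against TFEB-Veh). Other scalings moved this gene in the comparisons with EV-Dox, where 3 of 5 called it higher in EV-Dox than in EV-Veh, up to 1.27, and lower in TFEB-Dox than in EV-Dox, down to -1.36. ITGAV minus ITGB1 was -4.56 to -4.08 in TFEB-Dox and -3.47 to -2.02 elsewhere, without overlap.

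ITGB3, the beta chain of platelet and vitronectin receptors, was measured by row ENSG00000259207.3 at 14.0, 6.94 and 9.69 normalized reads in EV-Veh, 10.2, 15.1 and 16.1 in EV-Dox, 15.5, 13.7 and 6.95 in TFEB-Veh, and 62.9, 80.7 and 50.1 in TFEB-Dox. The 3 TFEB-Dox libraries were the highest and the other groups overlapped. It was 5.17-fold higher than in TFEB-Veh (2.37, SE 0.36, limma adjusted p = 1.23e-06), and the call held under 3 of 5 scalings, with an adjusted p of up to 0.0586. Against EV-Dox the change was 2.14 (limma adjusted p = 6.7e-06), and 2 of 5 scalings called it. With 7 to 75 reads per library this is the least certain gene of the set. Its other row, ENSG00000259753.1, is at 0 in all 12 libraries, and 51.6% of the ITGB3 exon bases in GENCODE 29 overlap the gene that this annotation calls AC068234.1 under the same ID, so reads in shared exons may have gone uncounted. The megakaryocyte and platelet markers summed to 60.8 to 66.0 in TFEB-Dox and 74.0 to 80.5 in TFEB-Veh.

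ICAM1, the counter-receptor of the ITGB2 integrins, showed the second largest rise of the set. ICAM1 (ENSG00000090339.4) had 41.0, 78.3 and 47.5 normalized reads in EV-Veh, 140.1, 121 and 64.6 in EV-Dox, 61.2, 41.8 and 44.7 in TFEB-Veh, and 994, 1739.8 and 1265 in TFEB-Dox. TFEB-Dox stood apart, and EV-Dox was above TFEB-Veh but overlapped EV-Veh. ICAM1 was 26.2-fold higher in TFEB-Dox than in TFEB-Veh (4.71, SE 0.38, limma adjusted p = 8.85e-14). Against EV-Dox it was 12.5-fold higher (3.64, limma adjusted p = 1.46e-10). Both calls held under all 5 scalings, but with equal totals the changes of ICAM1 were 3.86 and 2.21. In GENCODE 29, 23.6% of its exon bases are shared with AC011511.2 or AC011511.5, so part of its reads may be uncounted or belong to those genes. Its promoter window, at chr19:10270870-10271119 on the plus strand, is shown because ICAM1 rose with its receptor chain ITGAX, and the capitals mark GGAAATTCC 186 bases and TATAAA 30 bases before the start, each a match of letters and not a measured site.
ICAM1: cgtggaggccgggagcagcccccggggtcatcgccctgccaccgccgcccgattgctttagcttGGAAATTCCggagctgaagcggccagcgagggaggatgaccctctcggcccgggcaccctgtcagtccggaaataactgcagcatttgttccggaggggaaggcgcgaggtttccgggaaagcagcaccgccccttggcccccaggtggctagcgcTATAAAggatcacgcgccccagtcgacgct

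Doxycycline without the TFEB vector was followed by changes in these genes too. In EV-Dox against EV-Veh, 2 of the 10 were higher (ITGAM and ITGAX) and 3 lower (ITGAL, ITGB2 and ITGA4), where 3.39% of all genes were higher and 23.3% lower. That background turned with the scaling, to 18.9% higher and 16.6% lower with TMM, 35.5% and 8.13% with equal totals, 31.3% and 10.0% with upper quartiles and 44.0% and 5.75% with expressed genes. Without EV-Veh replicate 2 it was 0.333% higher and 1.63% lower, and 1 of the 10 genes was higher and 1 lower. The median change was -0.39 over the 10 genes and -0.19 over all genes. ITGAM was 3.96-fold higher (log2 change 1.98, SE 0.34, limma adjusted p = 0.000478), kept under all 5 scalings and in each of the 12 fits that left out a library. ITGAX was 2.51-fold higher (1.33, SE 0.47, limma adjusted p = 0.0341), also under all 5 scalings, but 6 of 12 fits without a library lost it, with adjusted p between 0.0512 and 0.150. The EV-Dox libraries were the shallowest as a group and had the highest mitochondrial share, as given above.

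The falls of ITGAL (-1.55, limma adjusted p = 0.0382) and ITGB2 (-1.55, adjusted p = 0.0465) in EV-Dox depended on the scaling. They were called under 3 and 2 of the 5 scalings, and 8 and 9 of 12 fits without a library lost them, with adjusted p of up to 0.225 and 0.242. ICAM1 gave 0.93 (SE 0.38, limma adjusted p = 0.0575). With the replicate number as a block, a pairing that is not established, ICAM1 passed the test (limma adjusted p = 0.0344), as it did under the other 4 scalings. ITGA5, ITGB1, ITGAV and ITGB3 did not pass the test on the deposited scale. Of the 5 scalings, 2 called ITGB1 higher, 3 called ITGAV higher, 1 called ITGB3 higher and none called ITGA5.

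The response to doxycycline differed between the lines (interaction) for 7 of the 10 genes, 6 with a larger log2 response in the TFEB line and ITGAM with a smaller one, beside 29.2% and 6.15% of all genes. With TMM these shares were 23.0% and 24.2%, with equal totals 11.3% and 57.9%, with upper quartiles 13.8% and 50.3% and with expressed genes 10.9% and 57.8%. The median difference was 2.27 over the 10 genes and 0.31 over all genes. ITGAX responded by 5.19 more in log2 units (SE 0.66, limma adjusted p = 5.24e-08), ICAM1 by 3.78 (SE 0.53, adjusted p = 4.91e-07) and ITGB2 by 3.15 (SE 0.83, adjusted p = 0.00333). These differences were called under all 5 scalings but fell to 3.16, 1.76 and 1.11 with expressed genes. The response of ITGAM was the smaller (interaction -1.36 in log2 units, SE 0.48, limma adjusted p = 0.0264) and lost its call in 7 of 12 fits without a library (adjusted p 0.0529 to 0.0829). ITGA4 and ITGAL gave 0.27 (limma adjusted p = 0.751) and 0.58 (adjusted p = 0.565), and 3 of the 5 scalings called both lower, down to -1.76 for ITGA4 and -1.46 for ITGAL. ITGB3 gave 1.95 (SE 0.51, limma adjusted p = 0.00302) on the deposited scale, the only 1 of 5 scalings that called it.

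**Figure D4:**
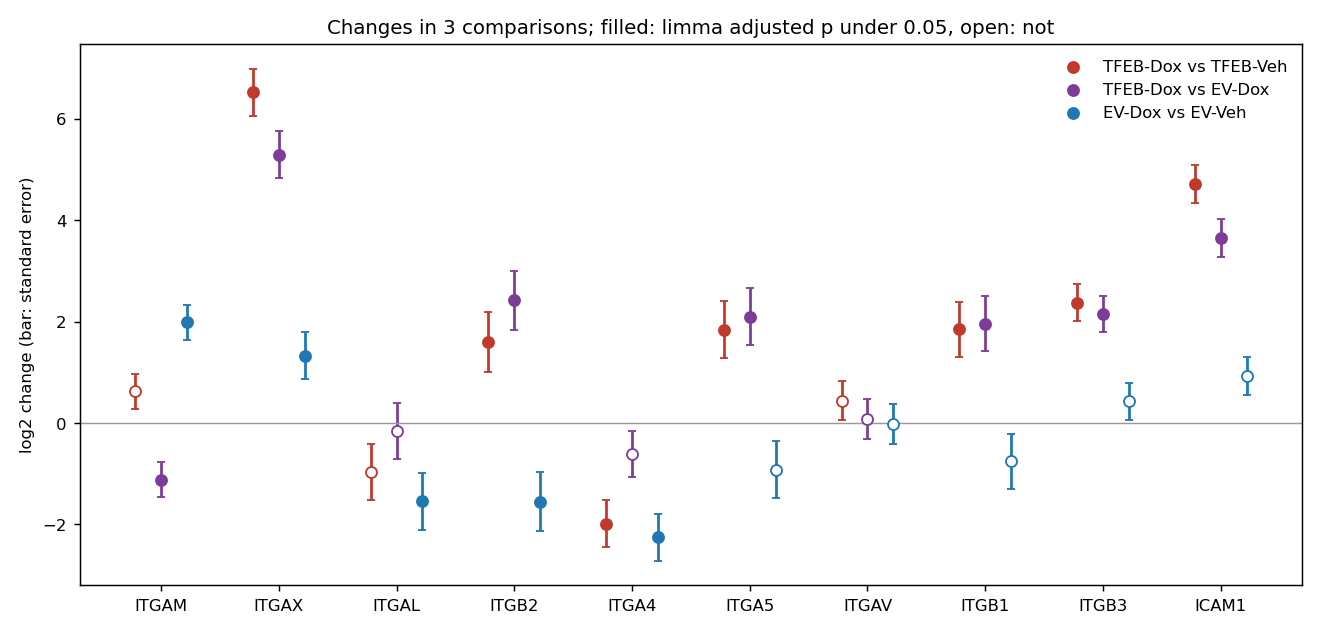
The log2 change of each gene in 3 comparisons, with the standard error as a bar; filled points have a limma adjusted p under 0.05 and open points do not. ITGAX and ICAM1 are highest in both comparisons of TFEB-Dox, and ITGAM is the gene that is higher in EV-Dox against EV-Veh (1.98) and lower in TFEB-Dox against EV-Dox (-1.12).

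The median change of all genes moved with the scaling. In TFEB-Dox against TFEB-Veh it was -0.00 on the deposited scale, -0.24 with TMM, -0.68 with upper quartiles, -0.72 with 7290 expressed nuclear genes and -0.83 with equal totals, and in EV-Dox against EV-Veh it ran from -0.19 on the deposited scale to 1.05 with expressed genes. A scaling moves every gene by nearly the same amount, so the distance of a gene to the median is nearly fixed by construction and gives its size relative to other genes, not a check of the scaling. In TFEB-Dox against TFEB-Veh ITGAX lay 6.49 to 6.52 above the median of all genes, ICAM1 4.68 to 4.71, ITGB2 1.57 to 1.61, and ITGA4 between -2.02 and -1.98. In EV-Dox against EV-Veh, ITGAM lay 2.17 to 2.21 above the median and ITGAL and ITGB2 between -1.36 and -1.31. Under all 5 scalings alike, TFEB-Dox against TFEB-Veh called 5 genes higher (ITGAX, ICAM1, ITGB2, ITGA5 and ITGB1) and 1 lower (ITGA4), and EV-Dox against EV-Veh called 2 higher (ITGAM and ITGAX) and 1 lower (ITGA4). The share of all genes called under all 5 scalings alike was not counted, so these counts have no background beside them. Shares under each single scaling are given above.

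Scaling by expressed genes drew the libraries of a group together for some members and spread them for others. ITGB1 then had 1422 to 1559 in EV-Veh, 1432 to 1589 in TFEB-Veh, 2027 to 2266 in EV-Dox and 3218 to 3372 in TFEB-Dox, so that EV-Dox stood above both vehicle groups, which it did not on the deposited scale. ITGAL had 702 to 727 in TFEB-Dox and 1702 to 2796 in the other 9 libraries, without overlap, where the deposited scale left TFEB-Dox inside the range of EV-Dox. ITGAM had 345 to 532 in EV-Dox and 64.8 to 98.6 in TFEB-Dox, and the latter overlapped both vehicle groups. The vehicle groups of ITGAM widened, from 50.6 to 73.6 on the deposited scale to 25.3 to 81.6 in EV-Veh and from 51.4 to 87.7 to 55.7 to 155 in TFEB-Veh. ITGAX in EV-Veh widened from 84.3 to 129.95 to 42.2 to 120.0. ITGB3 in EV-Dox widened from 10.2 to 16.1 to 12.5 to 57.1 and then overlapped the 40.8 to 54.2 of TFEB-Dox.

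**Figure D5:**
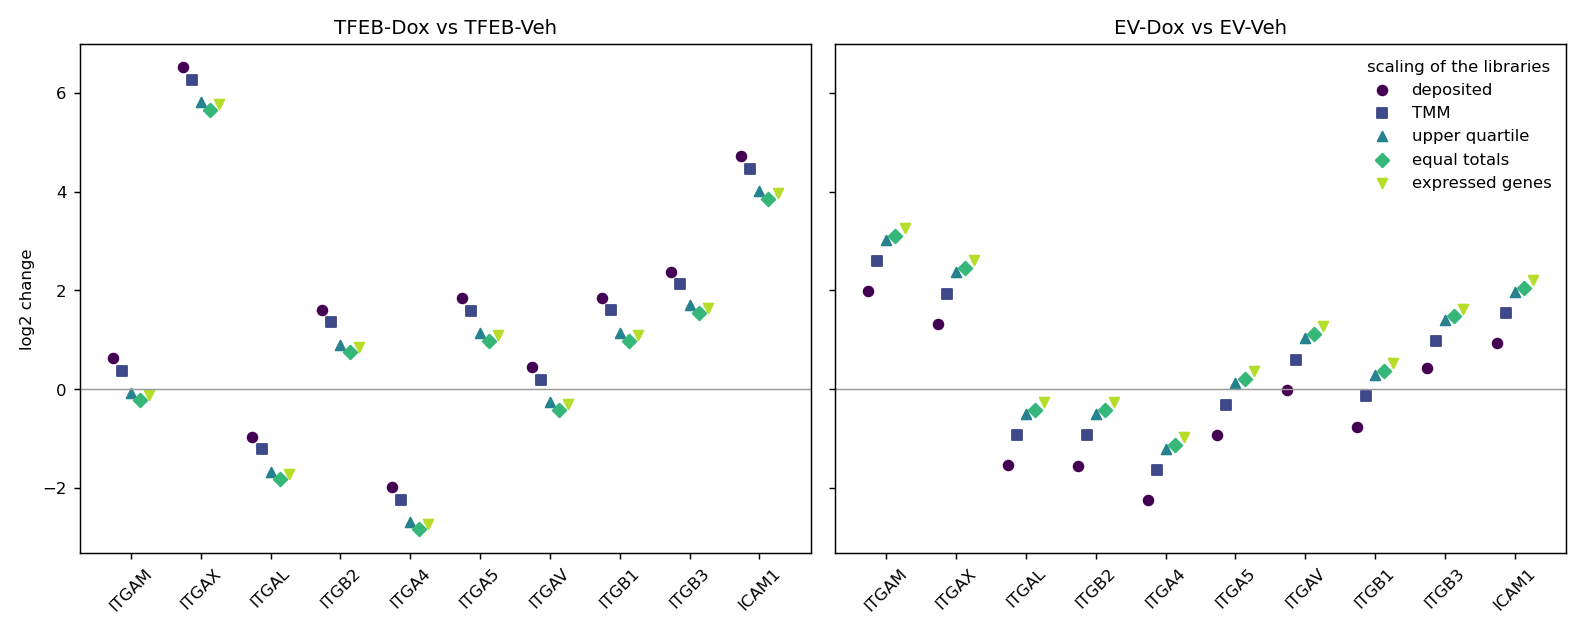
The log2 change of each gene under 5 scalings of the libraries, in TFEB-Dox against TFEB-Veh on the left and in EV-Dox against EV-Veh on the right; each marker is a scaling. All genes shift together from 1 scaling to the next; on the left ITGAM and ITGAV and on the right ITGA5, ITGAV and ITGB1 cross 0, and ITGAX, ICAM1, ITGB2, ITGA5, ITGB1 and ITGB3 stay above 0 on the left.

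Levels of different genes can be set side by side only per length of exon (normalized reads per kb of GENCODE 29 exons). In TFEB-Dox the order was ITGAX (1443 ± 435, SD, n = 3), ITGB2 (1093 ± 234), ITGB1 (730 ± 134), ITGA5 (367 ± 107), ICAM1 (360 ± 102), ITGAL (148 ± 32.0), ITGAV (27.4 ± 7.3), ITGAM (19.0 ± 2.2), ITGA4 (18.4 ± 5.9) and ITGB3 (14.7 ± 3.5). Neighbours that differed by less than the larger SD of the pair were ITGAX and ITGB2, ITGA5 and ICAM1, ITGAM and ITGA4, and ITGA4 and ITGB3. All exon bases were counted, although 51.6% of those of ITGB3 and 23.6% of those of ICAM1 are shared with other genes. Reads there may be uncounted, so the places of ITGB3 and ICAM1 in the order are uncertain. In TFEB-Veh the order began with ITGB2 (365 ± 101), ITGAL (293 ± 75.6) and ITGB1 (209 ± 64.2), and ITGAX (15.3 ± 2.6), ICAM1 (13.3 ± 2.8) and ITGAM (12.5 ± 3.2) stood near its end. Among the alpha chains that pair with ITGB2, the leading one per length was ITGAL in the 3 control groups, with 187 ± 107 in EV-Dox beside 43.3 ± 15.0 for ITGAM and 39.9 ± 20.8 for ITGAX, and ITGAX in TFEB-Dox.

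Of a wider list of 77 other integrin genes, ligands, regulators and adhesion proteins, 17 were higher and 4 lower in TFEB-Dox than in TFEB-Veh (median change 0.23), where 17.4% of all genes were higher and 4.66% lower. Among 12 other alpha subunits, ITGA6, a laminin receptor chain, rose from 71.8 ± 16.6 to 955 ± 140 normalized reads (SD, n = 3; 3.73, limma adjusted p = 9.36e-12), and ITGA8 was lower (-1.23, adjusted p = 0.00625). Among 5 other beta subunits, ITGB7, the partner of ITGA4 in gut homing, fell from 133 ± 20.2 to 35.2 ± 7.3 (-1.90, limma adjusted p = 0.000182). Of 17 ligands 3 were higher, with SPP1, the integrin ligand osteopontin, at 169 ± 1.1 beside 19.6 ± 3.5 (3.06, limma adjusted p = 1.14e-11) and the junctional protein F11R at 1.49 (adjusted p = 0.000713). The third ligand was ICAM4, a red cell relative of ICAM1 (1.30, limma adjusted p = 0.00294), and it and F11R were each called under 2 of 5 scalings.

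Proteins that switch integrins on from inside the cell gave 2 higher and 1 lower of 13. FERMT3 (kindlin-3), which binds beta tails in blood cells, rose from 834 ± 266 to 6359 ± 1512 normalized reads (SD, n = 3; 2.95, limma adjusted p = 9.8e-05), and RASGRP2, an exchange factor for Rap1, fell from 599.9 ± 206 to 114 ± 22.3 (-2.34, adjusted p = 0.000166). CYTH1, which binds the ITGB2 tail, was higher by 1.22 (limma adjusted p = 0.0456, called under 4 of 5 scalings). The beta1-tail inhibitor ITGB1BP1 was the 1 of 4 negative regulators that passed the test (3.28, limma adjusted p = 5.69e-08). Of 17 adaptors and kinases 6 were higher and 1 lower, led by the focal adhesion protein paxillin (PXN, 4.86, limma adjusted p = 1.01e-12), LIMS2 (3.95, adjusted p = 2.73e-13) and the tensin TNS1 (2.86, adjusted p = 9.57e-06). LIMS1, PTK2B and ACTN1 made up the 6, and the focal adhesion kinase PTK2 was the lower one (-0.83, limma adjusted p = 0.0430). Of 9 membrane partners 4 were higher and none lower, with the tetraspanins CD63 (5.75, limma adjusted p = 8.31e-12) and CD81 (2.53, adjusted p = 0.000457) and the amino acid transporter chain SLC3A2 (1.57, adjusted p = 0.0232). The fourth was CD82 (0.91, limma adjusted p = 0.0348), which 1 of 5 scalings called. Of the 21 genes called, 17 kept the call under all 5 scalings, and ITGA8, ICAM4, PTK2, CD82, LIMS1, PTK2B and ACTN1 are named after their values were seen, to complete the counts. In EV-Dox against EV-Veh the same 77 genes gave 6 higher and 12 lower, beside the 3.39% and 23.3% of all genes given above. Of the genes named here PXN (1.47, limma adjusted p = 0.0135) and ITGA8 (0.95, adjusted p = 0.0383) were higher there, and RASGRP2 (-1.89, adjusted p = 0.0068), SLC3A2 (-1.72, adjusted p = 0.0171) and ACTN1 (-1.78, adjusted p = 0.0219) were lower.

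Over the 12 libraries, the genes whose log2 values ran most like ITGAX among 12060 with a mean of at least 50 were EMP1 (Pearson r = 0.996), SEMA6B (0.995), RP11-134L10.1 (0.994), SMPD1 (0.994) and ARHGEF11 (0.992). Those most like ITGAM were LOXL4 (0.947), FILIP1L (0.921), ADAM28 (0.920), REC8 (0.903) and GBP2 (0.896), and LOXL4 averaged 713 ± 202 normalized reads in EV-Dox, 86.5 ± 34.5 in TFEB-Dox, 41.3 ± 9.4 in TFEB-Veh and 32.5 ± 1.6 in EV-Veh (SD, n = 3 each). Within the set, ICAM1 followed ITGAX most closely (r = 0.99), ITGA5 followed ITGB1 (0.97), and ITGAM and ITGAX gave 0.28. These correlations describe 12 libraries that fall into groups and share their scaling, and carry no test.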

How the data were processed

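Total RNA of 12 HL60 libraries was sequenced, 3 in each of 4 groups taken from the labels' vector and treatment fields. The deposited values are a signal, read numbers that the authors normalized and listed per gene. STAR 2.5.3a and HTSeq 0.6.1 are named in the submitters' processing notes, while a genome build, an annotation and a strand setting were not given in the sources used here. Each column was a whole number of reads times 1 step per library (0.803 to 1.22), with 100% of values whole within 0.01. In 2 libraries the step lay so near 1 that recovery cannot be told from rounding.

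The test was limma 3.58.1 (R 4.3.3) on log2(value + 1) with 4 group means and a mean-variance trend, over the 23128 of 57820 genes with a mean of at least 10, Benjamini-Hochberg adjusted with a threshold of 0.05. Fold changes are on that scale and understate the change of low genes. The test was also run on simulated data in which the library factors were known, which cannot check the choice of scaling. Alternatives were a pseudocount of 5, no filter, 4 other scalings, the replicate number as a block, DESeq2 1.42.0 and edgeR 4.0.16 fitted to recovered reads, and leaving out each library. The named genes are TFEB, the 10 members, from each group of the wider list the 3 or fewer called genes of largest change and mean 50 or more (otherwise the gene of highest mean), and the 5 genes most correlated with ITGAX and with ITGAM. ITGAD, the neighbour of ITGAX, was added after its values were seen. Members and lists were chosen with earlier results of these data known. Deviations from the group means correlated at -0.22 to 0.72 between same-numbered libraries, over 0.1 in 14 of 18 pairs. In EV-Dox with EV-Veh and in TFEB-Veh with EV-Veh all 3 pairs passed 0.1. However, EV-Veh replicate 2 correlated more with EV-Dox replicate 1 (0.61) than with EV-Dox replicate 2 (0.40). Pairing by replicate number is therefore not established, and results with the replicate as a block or pair are alternatives only.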

Additional observations from a re-analysis of the deposited data

Results flagged for a closer look

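The response to doxycycline on the log2 scale differed between the TFEB line and the EV line for 7 of the 10 genes, by limma's test of that difference (adjusted p under 0.05). The response was larger in the TFEB line by 5.19 for ITGAX, 3.78 for ICAM1, 3.15 for ITGB2, 2.76 for ITGA5, 2.60 for ITGB1 and 1.95 for ITGB3, and for ITGAM the difference was -1.36. In ITGAX and ICAM1 both lines had a positive value and the TFEB line the larger one, although the value of ICAM1 in the EV line (0.93, limma adjusted p = 0.0575) did not pass the test. In ITGB2, ITGA5 and ITGB1 the EV line had a negative value on the deposited scale (-1.55, -0.92 and -0.76) and the TFEB line a positive one (1.60, 1.84 and 1.84), of which the negative values of ITGA5 and ITGB1 did not pass the test. With equal totals, upper quartiles and expressed genes the EV values were positive for ITGA5 (0.21, 0.12 and 0.36) and ITGB1 (0.37, 0.29 and 0.53). The EV value of ITGB2 was called under 2 of 5 scalings. With expressed genes the difference between the lines fell to 1.11 for ITGB2, 0.72 for ITGA5 and 0.56 for ITGB1. In ITGAM both values were positive on the deposited scale, 1.98 in the EV line and 0.62 in the TFEB line, the latter without passing the test. The TFEB value of ITGAM was negative with equal totals, upper quartiles and expressed genes. For ITGB3 the EV line gave 0.42 and the TFEB line 2.37, and its difference kept its call under 1 of 5 scalings, falling to 0.03 with expressed genes. The EV-Dox group had the lowest mean total and the highest mean mitochondrial share, and the part of these in the differences was not tested.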

How the results depend on the processing

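The difference of ITGAX to ITGAM in TFEB-Dox against the other 9 libraries was 5.79 to 6.15 with a library left out, 5.99 with a pseudocount of 5 and 6.01 on recovered reads. With labels permuted within the replicate number, as a replicate block, its exact permutation p was 0.0156, the smallest that 64 arrangements can give and not adjusted, and 0.109 after Benjamini-Hochberg adjustment over the 7 comparisons. As a block, the replicate number left the counts of genes in TFEB-Dox against TFEB-Veh at 6 higher and 1 lower and added ITGAM to those higher than in EV-Veh (adjusted p = 0.0459) and ICAM1 in EV-Dox, and changed no other call. Lower calls in TFEB-Dox against TFEB-Veh became 2 under TMM, equal totals, upper quartile, expressed genes, edgeR and DESeq2. Against EV-Dox they became 2 (TMM, edgeR and DESeq2) or 4 (equal totals, upper quartile and expressed genes). Against EV-Veh 7 genes were higher with TMM and edgeR and 6 with equal totals, upper quartile, expressed genes and DESeq2, and 1 was lower without a filter. In EV-Dox against EV-Veh 5 were higher with equal totals, 4 with upper quartile and edgeR and 6 with expressed genes, and 1 was lower without a filter, with equal totals and with expressed genes. In the interaction 0 were lower without a filter and 4 with equal totals, upper quartile and expressed genes. Shares of all genes under each scaling are given in the report. Over all genes, edgeR and DESeq2 called 9.49% and 6.88% lower in TFEB-Dox against TFEB-Veh, and 16.4% and 11.8% lower against EV-Dox. Against EV-Veh they called 18.7% and 15.5% higher, and 2.88% were lower without a filter. In EV-Dox against EV-Veh edgeR called 16.7% higher. Without a filter 6.35% were lower there and 1.49% in the interaction. The wider list had 9 lower genes with TMM, 26 with equal totals, 17 with upper quartile, 15 with expressed genes and 10 with edgeR. With a library left out, TFEB-Dox had 3 to 6 higher against TFEB-Veh and 0 to 1 lower against EV-Dox. Against EV-Veh TFEB-Dox had 3 to 6 higher and 1 to 2 lower. EV-Dox had 1 to 3 higher and 1 to 4 lower, the interaction 0 to 1 lower, and the wider list 13 to 21 higher and 2 to 6 lower. In the same fits, 2782 to 4895 of the 23128 genes were higher in TFEB-Dox against TFEB-Veh and 608 to 1488 lower. Against EV-Dox 2.91% to 7.16% of all genes were lower. Against EV-Veh 9.33% to 14.5% were higher and 4.97% to 11.5% lower. In EV-Dox against EV-Veh 0.333% to 7.07% were higher and 1.63% to 35.2% lower. In the interaction 2.64% to 8.95% were lower. How far the counts follow these shares was not tested.

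Values that changed sign all belong to changes that limma did not call on the deposited scale. Their cause was not tested beyond the shift of all genes given in the report. Some reversed values were called under other scalings. In EV-Dox against EV-Veh these were ITGB1 (2 of 5 scalings) and ITGAV (3 of 5). In TFEB-Dox against EV-Dox ITGAV was called (3 of 5), and in the interaction ITGA4, ITGAL and ITGAV (3 of 5 each). In TFEB-Dox against TFEB-Veh the values that changed sign were, with equal totals, upper quartile and expressed genes in that order, -0.23, -0.075 and -0.12 for ITGAM and -0.41, -0.26 and -0.30 for ITGAV. In EV-Dox against EV-Veh, in the same order, they were 0.21, 0.12 and 0.36 for ITGA5, 0.37, 0.29 and 0.53 for ITGB1 and 1.11, 1.03 and 1.27 for ITGAV, which also gave 0.60 with TMM, 0.60 with edgeR and 0.31 with DESeq2. In TFEB-Dox against EV-Dox ITGAV gave -0.35 with TMM, -1.36, -1.07 and -1.30 with the other scalings, -0.33 with edgeR and -0.16 with DESeq2. Against EV-Veh ITGAV gave -0.25, -0.041 and -0.029 with equal totals, upper quartile and expressed genes. In TFEB-Veh against EV-Veh ICAM1 gave 0.29 with TMM, 0.41, 0.46 and 0.52 with the other scalings, 0.33 with edgeR and 0.052 with DESeq2, ITGAV 0.050, 0.17, 0.22, 0.28 and 0.057 up to edgeR, and ITGB1 0.021 with expressed genes. In the interaction ITGA4 gave -0.59 with TMM, -1.72, -1.48 and -1.76 with the other scalings, -0.61 with edgeR and -0.20 with DESeq2, ITGAL -0.29, -1.41, -1.17, -1.46 and -0.37 up to edgeR, and ITGAV -0.40, -1.53, -1.29, -1.58 and -0.39. With a library left out, the range was -0.32 to 0.14 for ICAM1, -0.037 to 0.28 for ITGAX and -0.027 to 0.52 for ITGB3 in TFEB-Veh against EV-Veh, -0.088 to 0.55 for ITGA4 in the interaction, -0.72 to 0.26 for ITGAL and -0.13 to 0.31 for ITGAV in TFEB-Dox against EV-Dox, -0.16 to 0.19 for ITGAV in EV-Dox against EV-Veh and -0.10 to 0.30 for ITGAV in TFEB-Dox against EV-Veh. Calls that were lost without the filter on low values were ITGAL in TFEB-Dox against EV-Veh (adjusted p = 0.0668), ITGAL and ITGB2 in EV-Dox (0.0951 and 0.203) and ITGAM in the interaction (0.0511). With edgeR ITGB2 in EV-Dox (0.0768) and ITGB3 in the interaction (0.189) were lost, the latter also with DESeq2 (0.0503). Leaving out EV-Dox replicate 3 made calls of ICAM1 in EV-Dox (0.0225) and of ITGA5 and ITGB1 in TFEB-Dox against EV-Veh (0.0320 and 0.0328), leaving out EV-Dox replicate 1 made one of ITGA5 in EV-Dox (0.0487), and leaving out either made one of ITGAM in TFEB-Dox against EV-Veh (0.0285 to 0.0492). All of these p-values are adjusted by Benjamini-Hochberg over all genes tested. Depth limits ITGAM and ITGB3, which had at most 367 and 75 reads in a library.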
